A study of Homo sapiens with 5 samples.

Results

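Peaks of the transcription factors (TFs) Fra-1, MYC and E2F1 were examined at 10 genes of the AP-1 family, out of 20098 protein-coding genes annotated on the hg19 genome. The genes were chosen by name, with earlier results of these data known. They comprise FOS, FOSB, FOSL1 and FOSL2 (FOS group), JUN, JUNB and JUND (JUN group), ATF3 and BATF3, and the small MAF gene MAFF. For each gene, every peak that overlapped the gene or lay within 50 kb of either end was collected. A peak was put in the promoter class when it overlapped a window from 2 kb upstream to 2.5 kb downstream of any annotated transcriptional start site (TSS) of the gene, in the gene body class when it overlapped only the rest of the gene, and in the flank class otherwise. The neighbourhoods were between 101830 and 155444 bp long.

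The study used chromatin immunoprecipitation and sequencing (ChIP-Seq) in LM2 cells, a derivative of the human breast cancer line MDA-MB-231 that metastasizes to the lung. Per the labels the cells were untreated, and the groups differed in the antibody, which was directed against Fra-1, c-Myc or E2F1. A legend in the study's supplement also links ChIP-Seq to LM2 lysates with a control vector or shRNA, and whether these libraries came from vector-carrying cells is not given in the sources used here. Each TF had 1 library, and all 3 libraries were compared with the same input chromatin, so no spread between replicates could be measured and no test was made. Of the 5 samples, the EZH2 and input libraries are not analysed here, nor are RNA levels.

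AP-1 is a dimer of basic leucine zipper proteins, built from a JUN protein paired with a FOS, ATF or related partner. It binds the short AP-1 motif, TGACTCA or TGAGTCA, and some dimers prefer the cAMP response element (CRE), TGACGTCA. Several AP-1 genes are immediate-early genes whose transcription rises quickly after growth factors or stress. Fra-1 is the protein made from FOSL1, so its antibody reports on the binding of an AP-1 protein at the genes of its own family. MYC binds the E-box CACGTG, and E2F1 is a cell cycle regulator found mostly near TSSs.

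After removal of duplicate tags, the Fra-1 library held 12931227 tags, the MYC library 23853621 and the E2F1 library 18056168, against 10758036 for the input. The lists hold 17311 Fra-1 peaks, 4857 MYC peaks and 36901 E2F1 peaks on chromosomes 1 to 22 and X. The pileup of a peak is the number of fragments that cover its summit after scaling to the smaller library, and its fold enrichment is this pileup over the local input background, each with 1 added. Since 1 tag per position was kept, the pileup has a ceiling, which was 135 for E2F1, 185 for Fra-1 and 83.0 for MYC. The highest E2F1 pileup in the list was 134, so the strongest E2F1 peaks cannot be ranked among themselves. Intervals given for pileups are exact 95% Poisson intervals and cover counting error only. They ignore the ceiling, so for the strongest E2F1 peaks the upper limits lie above it and are not reachable pileups. Fold enrichments can be compared between genes for 1 TF, but only roughly between TFs, because depth and scaling differ.

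E2F1 had promoter peaks at all 10 genes, Fra-1 at 6 and MYC at 3. The Fra-1 promoter peaks were at FOSL1, FOSL2, JUN, JUNB, ATF3 and MAFF, and none was called at FOS, FOSB, JUND or BATF3. The MYC promoter peaks were at FOSB, FOSL1 and JUNB. FOSL1 and JUNB were the members with promoter peaks of all 3 TFs, and in both a stretch of the promoter window was covered by all 3 TFs at once. Among all protein-coding genes, 13.2% had a Fra-1 promoter peak, 17.8% a MYC promoter peak and 61.3% an E2F1 promoter peak. Promoter peaks of all 3 TFs were found at 4.67% of genes, and a stretch of overlap of the 3 TFs in the promoter window at 2.89%. When each list was reduced to its 4857 strongest peaks, the length of the MYC list, Fra-1 promoter peaks remained at 3 members, which were FOSL1, JUNB and MAFF, beside 3.41% of protein-coding genes, and E2F1 promoter peaks at 7, beside 25.6%. In the same reduced lists the overlap of the 3 TFs was kept at FOSL1 and lost at JUNB, as it was at a −log10 q of at least 5. It was lost at FOSL1 when summits had to lie within 200 bp, and at both genes with a reciprocal overlap of 50%.

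**Figure D1:**
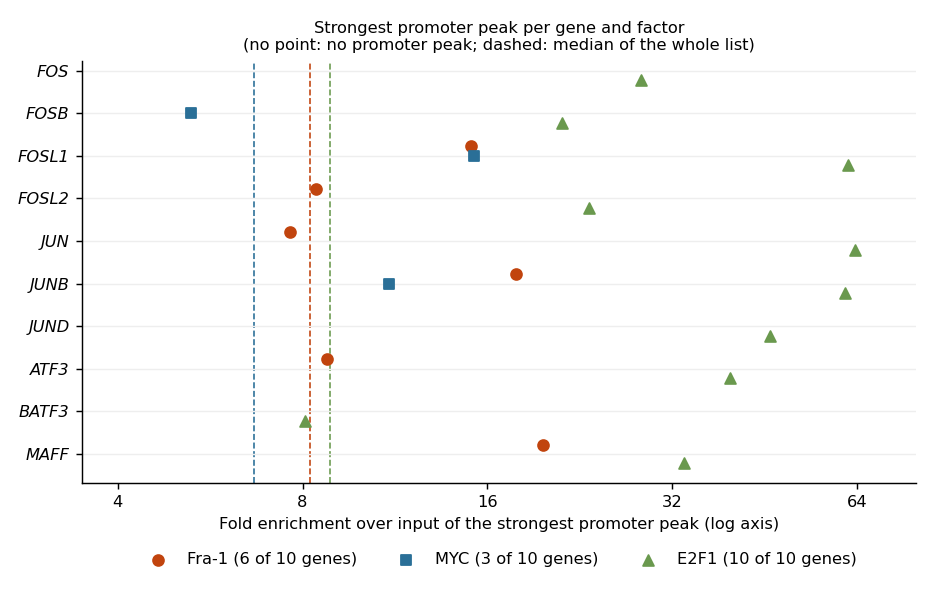
Fold enrichment over input (log axis) of the promoter peak with the highest fold for each of the 10 genes, with 1 point per TF and no point where no promoter peak was called. Dashed lines mark the median fold of each whole list, at 8.24 (Fra-1), 6.67 (MYC) and 8.88 (E2F1). E2F1 points lie at 21.2 or higher for every gene but BATF3, which is at 8.07.

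Counted over the whole neighbourhoods, the 10 genes had 46 Fra-1 peaks, 24 MYC peaks and 138 E2F1 peaks, and no peak belonged to more than 1 of the genes. All 10 genes had at least 1 Fra-1 peak and at least 1 E2F1 peak, and 7 had a MYC peak. Among all protein-coding genes, 55.8% had a Fra-1 peak within the same limits, 39.5% a MYC peak and 83.0% an E2F1 peak. A member had a median of 4 Fra-1, 1 MYC and 13 E2F1 peaks, beside medians of 1, 0 and 3 over all protein-coding genes. FOSL1 had the most peaks of every TF among the members, with 10, 9 and 28 for Fra-1, MYC and E2F1. Only 0.721%, 0.448% and 0.254% of protein-coding genes had as many or more. FOS, ATF3 and BATF3 had no MYC peak at all.

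**Figure D2:**
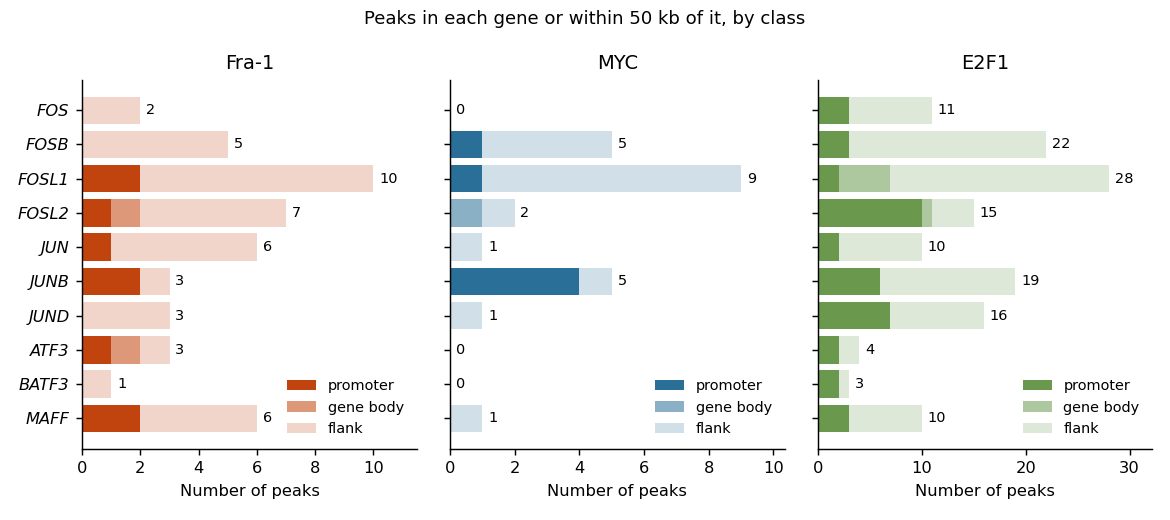
Number of peaks (x axis) in each gene or within 50 kb of it, with 1 panel per TF and shading by class from promoter (darkest) to flank (lightest); the number at each bar is the total. Flank peaks make up 35 of the 46 Fra-1 peaks, 17 of the 24 MYC peaks and 92 of the 138 E2F1 peaks.

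Most neighbourhood peaks of each TF were in flanks. By construction, flanks also make up most of the length of every neighbourhood, so this majority does not show a preference for flanks. Whether peaks favoured a class relative to its length, or relative to all genes, was not tested. The promoter class held 9 of the 46 Fra-1 peaks (19.6%, exact binomial 95% interval 9.36 to 33.9), 6 of the 24 MYC peaks (25%, 9.77 to 46.7) and 40 of the 138 E2F1 peaks (29.0%, 21.6 to 37.3). These intervals overlap. Flank peaks cannot be assigned to the members, because 12 of the 35 Fra-1 flank peaks, 11 of the 17 MYC flank peaks and 45 of the 92 E2F1 flank peaks lay in the promoter window of another protein-coding gene. For 16 Fra-1, 5 MYC and 37 E2F1 flank peaks, the closest canonical TSS was that of the member.

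**Figure D3:**
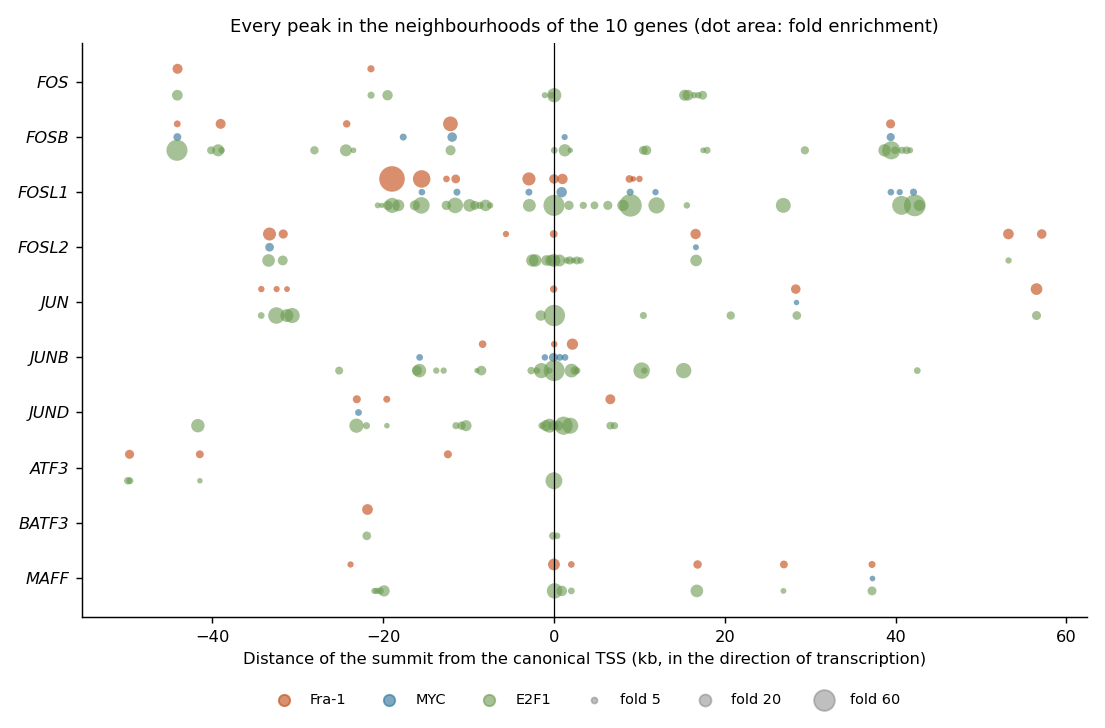
Every neighbourhood peak of the 10 genes by the distance of its summit from the canonical TSS (kb, negative upstream), with 1 line of dots per TF and dot area proportional to fold enrichment. The largest Fra-1 dot is the FOSL1 upstream peak at fold 91.1, and the largest E2F1 dots at the start sites are those of JUN, FOSL1 and JUNB.

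FOSL1 encodes Fra-1 itself and lies at chr11:65659520-65668044 on the minus strand. The strongest Fra-1 peak of the whole list, first by both fold enrichment and q-value, was in its neighbourhood. By pileup it had rank 4, at 130 beside a list maximum of 143. The peak, chr11:65686710-65686997, had a counting interval of 110 to 152 for this pileup, a fold enrichment of 91.1 and a −log10 q of 259, and its summit lay 18968 bp upstream of the FOSL1 TSS. Its closest TSS was that of DRAP1, 70 bp away, it was in the promoter windows of C11orf68 and DRAP1, and 9 protein-coding genes in all had it within 50 kb. A further Fra-1 peak 15495 bp upstream of FOSL1, chr11:65683152-65683519, was seventh in the list by q-value. It had almost the same pileup, 128 (109 to 150), but a fold of 43.0. The recovered input background was 0.438 at the first of these peaks and 2.00 at the other. Within the rounding of the pileup, the first value is at the floor of the Fra-1 background, 0.442. The higher fold of the first peak thus came with a background at the floor, not with a clearly higher pileup.

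Closer to FOSL1, a Fra-1 peak 2935 bp upstream of the TSS had a pileup of 71 (56.5 to 87.4) and a fold of 24.2. It ranked 277 of 17311 by q-value. The FOSL1 promoter window held 2 Fra-1 peaks of lower pileup. At the TSS, 5 bp upstream, the pileup was 24 (16.2 to 34.6) and the fold 12.6, and 991 bp downstream, in an intron, the pileup was 20 (12.8 to 29.7) and the fold 15.1. At the upstream peaks 2935, 15495 and 18968 bp away, Fra-1 pileups were therefore higher than at the promoter, with intervals that do not overlap. The other Fra-1 flank peaks had folds between 4.24 and 10.9.

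MYC and E2F1 were also at the FOSL1 promoter. The MYC peak, 902 bp downstream of the TSS, had a pileup of 19 (13.7 to 25.6) and a fold of 15.2, the highest of any MYC peak in the 10 neighbourhoods, and ranked 149 of 4857 by q-value. The E2F1 peak was 1926 bp wide with its summit 2 bp upstream of the TSS, a pileup of 122 (106 to 140) and a fold of 61.9. Fra-1 and MYC peaks also overlapped at the upstream peaks 2935 and 15495 bp away, where MYC folds were 6.81 and 6.14, and 11502 bp away. The strongest flank peak of MYC, at fold 7.18, was in the promoter windows of CFL1 and MUS81, and so was that of E2F1, at fold 65.8. An E2F1 peak that reached into the far end of the gene had a fold of 70.8, and its summit was nearest the TSS of CCDC85B.

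The stretch in the FOSL1 intron that is covered by peaks of all 3 TFs is 222 bp long, chr11:65666818-65667039. It is shown because it holds the motif of Fra-1 and the motif of MYC. The sequence (GRCh37, minus strand, the strand of the gene) has the E-box and the AP-1 motif in capitals:

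FOSL1 intron: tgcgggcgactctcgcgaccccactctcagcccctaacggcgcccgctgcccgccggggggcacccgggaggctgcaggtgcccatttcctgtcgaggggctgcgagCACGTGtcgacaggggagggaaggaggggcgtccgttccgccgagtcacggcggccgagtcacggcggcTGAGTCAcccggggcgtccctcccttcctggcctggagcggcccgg

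The AP-1 motif was 8 bp from the Fra-1 summit, the E-box 27.5 bp from the MYC summit, and the middles of the motifs were 69.5 bp apart. This was the only E-box within 50 bp of any of the 24 MYC summits (4.17%), beside 16.8% of the MYC list. At the TSS and at the peak 15495 bp upstream, an AP-1 motif was also found, 7 and 35 bp from the Fra-1 summits. These are given on the minus strand with the AP-1 motif in capitals (chr11:65667843-65667872 and chr11:65683304-65683404):

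FOSL1 TSS: gcacggcgcgggTGAGTCAgaacccagcag
FOSL1 upstream: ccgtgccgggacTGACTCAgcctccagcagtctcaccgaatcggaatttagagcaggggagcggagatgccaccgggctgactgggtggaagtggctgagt

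The strongest Fra-1 peak of the list had neither the AP-1 motif nor the CRE within 50 bp of its summit. The same was true of the peak 2935 bp upstream. An E2F motif, with the letters given further below, lay 15.5 bp from the summit of the strongest peak. This motif was near 0.347% of the Fra-1 summits of the list. An E2F1 peak with a pileup of 45 (35.7 to 56.7) and a fold of 31.9 overlapped the strongest Fra-1 peak.

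**Figure D4:**
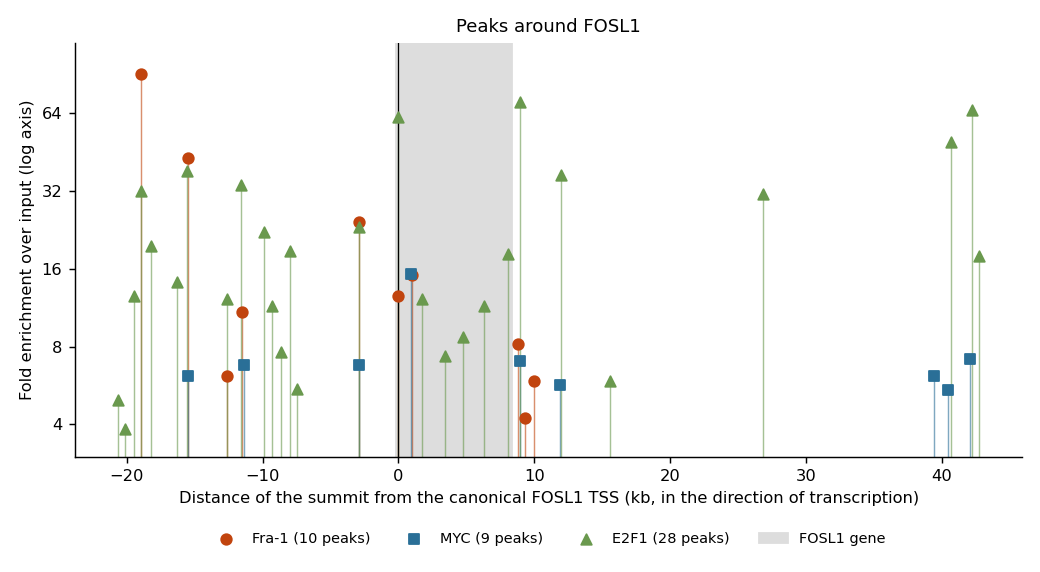
Fold enrichment over input (log axis) of the Fra-1, MYC and E2F1 peaks around FOSL1 by distance of the summit from its canonical TSS (kb, negative upstream); grey marks the gene. The Fra-1 peaks at folds 91.1, 43.0 and 24.2 lie upstream of the gene, while the promoter holds Fra-1 peaks at 12.6 and 15.1.

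FOS, at chr14:75745529-75748933, is the founding immediate-early member of the group. It had E2F1 peaks in its promoter window but neither a Fra-1 nor a MYC peak there. The E2F1 summit 25 bp downstream of the TSS had a pileup of 84 (70.7 to 99.1) and a fold of 28.5. Weaker E2F1 peaks lay 298 and 1080 bp upstream, with folds of 6.29 and 5.17. Both Fra-1 peaks of FOS were far upstream, at 44081 bp with fold 14.1 and an AP-1 motif 20 bp from the summit, and at 21434 bp with fold 7.27. FOS was the closest gene to both, and E2F1 overlapped both. The strongest E2F1 flank peak, at fold 16.9, lay 15292 bp downstream of the TSS, and FOS was again its closest gene. The E2F1 summit 298 bp upstream is shown because it covers the CArG box, the core of the serum response element through which serum response factor is known to act on FOS (chr14:75745183-75745283, plus strand, CArG box in capitals):

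FOS upstream: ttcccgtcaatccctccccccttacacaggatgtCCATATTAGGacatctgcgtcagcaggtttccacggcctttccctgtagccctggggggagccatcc

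FOSB, at chr19:45971253-45978437, encodes a close relative of FOS, and the annotated ERCC1 gene extends over its promoter. Its promoter window held E2F1 and MYC peaks but no Fra-1 peak. The strongest E2F1 promoter peak was 1268 bp downstream of the canonical TSS, with a pileup of 32 (24.2 to 42.0) and a fold of 21.2. The MYC peak 1246 bp downstream was among the weakest of its list, with a pileup of 6 (3.12 to 10.0), a fold of 5.27 and rank 4556 of 4857, and it was lost when a −log10 q of at least 5 was required. Fra-1 was instead found upstream. The Fra-1 summit 12125 bp upstream of FOSB had a pileup of 46 (34.5 to 59.6) and a fold of 30.5, with an AP-1 motif 26 bp away, and FOSB had the closest TSS. MYC overlapped this peak at its strongest FOSB flank peak, with a fold of 12.8, and E2F1 overlapped it too. The strongest E2F1 flank peak, at fold 61.6, lay 44146 bp upstream in the promoter window of ERCC1.

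FOSL2, at chr2:28615315-28640184, encodes Fra-2, the closest relative of Fra-1. It had 10 E2F1 peaks in its promoter windows, the most of any member, and no MYC promoter peak. This count depends on the windows, which cover 4 annotated TSSs here, and on how signal is split into peaks. The FOSL2 peaks were 114 to 791 bp wide, whereas a JUN peak of 5591 bp counts as 1. The strongest E2F1 peak was 17 bp upstream of the TSS at a pileup of 45 (35.7 to 56.7) and a fold of 23.4. A Fra-1 peak lay 38 bp upstream, at a pileup of 15 (8.88 to 23.7) and a fold of 8.40. Stronger Fra-1 peaks lay away from the promoter. In the gene, 16582 bp downstream of the TSS, Fra-1 had a fold of 15.1 with an AP-1 motif 28 bp from the summit, and MYC (fold 5.01) and E2F1 (fold 19.0) overlapped it. Upstream, at 33311 bp, Fra-1 had a fold of 23.7, and the strongest flank peaks of MYC (fold 10.6) and E2F1 (fold 22.3) overlapped it. FOSL2 was the closest gene to all 3. The highest Fra-1 pileup, 78 (63.2 to 95.7) at a fold of 15.8, lay 53208 bp downstream of the TSS, closest to PLB1. The promoter sequence is shown because an AP-1 motif lies 7 bp downstream of the canonical TSS and 45 bp from the Fra-1 summit (chr2:28615718-28615747, plus strand, AP-1 motif in capitals):

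FOSL2 promoter: tgccattgtagTGACTCAtctcgggcagag

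JUN, at chr1:59242517-59249720 on the minus strand, encodes c-Jun, the partner with which FOS proteins form the classical AP-1 dimer. Its E2F1 promoter peak was 5591 bp wide and close to saturation, with a pileup of 133 (116 to 151), 98.8% of the ceiling, and a fold of 63.6. Fra-1 was weak at the same promoter, with a pileup of 14 (8.24 to 22.6) and a fold of 7.63 at 42 bp upstream of the TSS, below the median fold of its list. No MYC promoter peak was called. In the flanks, Fra-1 was strongest 56499 bp downstream of the TSS, where its pileup was 67 (53.5 to 83.8), its fold 19.2 and the closest gene MYSM1. Another downstream Fra-1 peak, 28307 bp from the TSS and closest to JUN, had a pileup of 64 (50.6 to 80.1) and a fold of 12.7. The only MYC peak of JUN overlapped it, at a fold of 4.20. E2F1 was strongest 32501 bp upstream, at a fold of 38.0, in a group of E2F1 peaks that also held 3 Fra-1 peaks with folds between 4.77 and 5.69.

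The JUN promoter is known for an AP-1 element that differs from the usual motif, TGACATCA. A search for this sequence, added after the peak values had been seen, found it 63 bp upstream of the TSS and 21.5 bp from the Fra-1 summit. It is shown in capitals (chr1:59249768-59249797, minus strand):

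JUN promoter: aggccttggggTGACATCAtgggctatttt

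The same letters were within 50 bp of 215 of the 17311 Fra-1 summits (1.24%) and in 2.11% of windows from 250 bp upstream to 50 bp downstream of the canonical TSSs of protein-coding genes. JUN was the only member with it in this window.

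JUNB, at chr19:12902300-12904129, encodes a JUN protein that is a weaker activator than c-Jun. Peaks of all 3 TFs met at its TSS, over a stretch of 227 bp, chr19:12902129-12902355. The E2F1 summit lay 19 bp downstream of the TSS with a pileup of 121 (105 to 139) and a fold of 61.3, in a peak 1900 bp wide. The MYC summit lay 68 bp upstream with a pileup of 16 (11.0 to 21.95) and a fold of 11.1. The Fra-1 peak there, 22 bp downstream, was weak, with a pileup of 10 (5.16 to 17.4) and a fold of 5.91. The other JUNB Fra-1 promoter peak was stronger, with a pileup of 24 (16.2 to 34.6) and a fold of 17.8, but its summit was 2158 bp downstream of the TSS and past the end of this short gene. JUNB had 4 MYC promoter peaks, more than any other member, and the other 3 had folds between 5.93 and 6.65. The promoter windows of JUNB and of HOOK2, an annotated neighbour that extends over it, hold the same strongest peaks. The strongest flank peaks of Fra-1 (fold 8.18) and MYC (fold 6.33) were closest to HOOK2, and that of E2F1 (fold 37.7) to PRDX2.

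JUND, at chr19:18390504-18392432 on the minus strand, encodes the most constitutively expressed JUN protein. Its promoter window had 7 E2F1 peaks and no Fra-1 or MYC peak. Unlike at JUN and JUNB, the strongest E2F1 peaks were not at the canonical TSS but in the gene. They lay 1907 and 1118 bp downstream of it, with pileups of 70 (57.7 to 83.5) and 66 (54.4 to 79.6) and folds of 35.7 and 46.2. The peak 62 bp upstream of the canonical TSS had a pileup of 24 (17.0 to 32.5). Another annotated TSS of JUND was closer to the 2 strongest summits, which lay 1214 and 425 bp downstream of it. A CRE lies 196 bp upstream of the TSS, inside the E2F1 peak chr19:18392418-18392663 but more than 50 bp from its summit. All 3 Fra-1 peaks in the flanks had an AP-1 motif within 50 bp of the summit. The strongest, at fold 13.8 and 11 bp from the motif, was in the promoter window of IQCN. At 23090 bp upstream, a Fra-1 peak of fold 9.07 overlapped the only MYC peak of JUND, of fold 6.44, and the strongest E2F1 flank peak, of fold 28.2. The closest gene to these was LSM4.

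ATF3, at chr1:212738676-212794119, is a stress-induced gene whose product can pair with JUN proteins or repress as a homodimer. E2F1 was at its canonical TSS, 9 bp upstream, with a pileup of 59 (47.9 to 71.8) and a fold of 39.8. Fra-1 was not called there. Its promoter peak belonged to a distal TSS, 1956 bp downstream of that start and 41471 bp upstream of the canonical one, with a pileup of 34 (24.5 to 46.3) and a fold of 8.78. It was absent from the promoter class when only the canonical TSS was used. The highest pileup among the Fra-1 promoter peaks was thus at a start site that is not the canonical one. A weak E2F1 peak of fold 4.27 overlapped it. The strongest Fra-1 flank peak (fold 11.6) had its summit 6272 bp upstream of the distal TSS, with both an AP-1 motif and a CRE within 50 bp. The E2F1 flank peak of highest fold (8.06, pileup 11) overlapped only its edge, with its summit 6467 bp upstream. Another E2F1 peak, 6219 bp upstream, also overlapped the Fra-1 peak, at a fold of 6.49 and a pileup of 18. The distal promoter peak is shown because its AP-1 motif, in capitals, lies 36 bp from the summit (chr1:212740582-212740682, plus strand):

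ATF3 distal: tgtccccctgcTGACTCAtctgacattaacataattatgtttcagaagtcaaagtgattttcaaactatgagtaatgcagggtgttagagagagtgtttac

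BATF3, at chr1:212859759-212873182 on the minus strand, encodes a small zipper protein without an activation domain, best known from dendritic cells. It had the weakest promoter signal of the family. The E2F1 promoter peaks, 353 bp downstream and 130 bp upstream of the TSS, had pileups of 11 (6.36 to 16.9) and 10 (5.90 to 16.2) and folds of 6.16 and 8.07. Neither Fra-1 nor MYC was called at the promoter. The only Fra-1 peak, 21919 bp upstream, had a pileup of 22 (14.1 to 31.7), a fold of 16.2 and an AP-1 motif 31 bp from its summit. The only E2F1 flank peak, at fold 10.5, overlapped it, and BATF3 was the closest gene.

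MAFF, at chr22:38596774-38612514, encodes a small MAF protein, which lacks an activation domain and binds DNA with itself or with other zipper proteins. It had the highest Fra-1 fold among the promoter peaks of the family, 19.7, at a pileup of 27 (18.2 to 37.6) and 8 bp upstream of the TSS. The recovered background there, 0.421, was at the floor within rounding. The ATF3 promoter peak had a pileup of 34 over a background of 2.99, and so a lower fold, 8.78. E2F1 peaked 64 bp downstream of the TSS at a pileup of 47 (37.3 to 58.7) and a fold of 33.5. A further Fra-1 promoter peak, 2027 bp downstream, had a fold of 6.32 and an AP-1 motif 44 bp from its summit. No MYC promoter peak was called, and the only MYC peak, at fold 4.54, was in the promoter window of TMEM184B, where it overlapped a Fra-1 peak of fold 6.99. The strongest flank peaks of Fra-1 (fold 10.1) and E2F1 (fold 22.4) overlapped 16812 bp downstream of the TSS, and MAFF was the closest gene. Part of the promoter peak is shown because a CRE, and no AP-1 motif, was found within 50 bp of its summit (chr22:38597936-38597965, plus strand, CRE in capitals):

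MAFF promoter: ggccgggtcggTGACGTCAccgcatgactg

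The CRE was 51 bp upstream of the TSS and 42.5 bp from the Fra-1 summit.

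Ordered by the pileup of the highest promoter peak, E2F1 ran from JUN (133) through FOSL1 (122), JUNB (121), FOS (84), JUND (70), ATF3 (59), MAFF (47), FOSL2 (45) and FOSB (32) to BATF3 (11). Neighbours in this order differed beyond their counting intervals only between JUNB and FOS and between FOSB and BATF3. JUN, FOSL1 and JUNB were at 98.8%, 90.6% and 89.9% of the ceiling, so no order among them can be read. For Fra-1 the order was ATF3 (34), MAFF (27), FOSL1 and JUNB (24 each), FOSL2 (15) and JUN (14), and no neighbours differed beyond their intervals. For MYC, FOSL1 (19) and JUNB (16) had overlapping intervals, and FOSB (6) was below both.

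Fra-1 peaks near the AP-1 genes overlapped peaks of the other TFs in a higher share than in the whole list. An E2F1 peak overlapped 42 of the 46 Fra-1 peaks (91.3%, exact binomial 95% interval 79.2 to 97.6), beside 61.5% of the list, and a MYC peak overlapped 14 (30.4%, 17.7 to 45.8), beside 5.90% of the list. Of the 24 MYC peaks, 14 overlapped Fra-1 (58.3%, 36.6 to 77.9), beside 21.4% of the list. The intervals of these 3 shares do not reach the list's share under this rule. By contrast, 23 of the 24 MYC peaks overlapped E2F1, beside 96.1% of the list, and 40 of the 138 E2F1 peaks overlapped Fra-1 (29.0%), beside 28.3% of the list. Peaks of the same neighbourhood are not independent. The whole list was not limited to peaks within 50 kb of a gene, so the sets compared differ in this too. With a reciprocal overlap of 50%, the share of Fra-1 peaks that overlapped E2F1 was no longer higher, at 39.1% beside 40.6% of the list, while that of MYC peaks with Fra-1 was 41.7% beside 11.9%. In lists of equal length these shares were 38.9% beside 4.82% and 33.3% beside 9.16%. Where peaks of Fra-1 and MYC overlapped, their summits were a median of 31.5 bp apart, beside 43 bp for such Fra-1 peaks in the whole list.

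Peaks of all 3 TFs overlapped in 14 stretches at 7 of the genes, beside 11.7% of protein-coding genes with at least 1 such stretch in the gene or within 50 kb. Only 2 of these were in promoter windows, those of FOSL1 and JUNB, and 12 were outside. FOSL1 had 5 of the stretches and FOSB 3, while FOS, ATF3 and BATF3 had none.

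**Figure D5:**
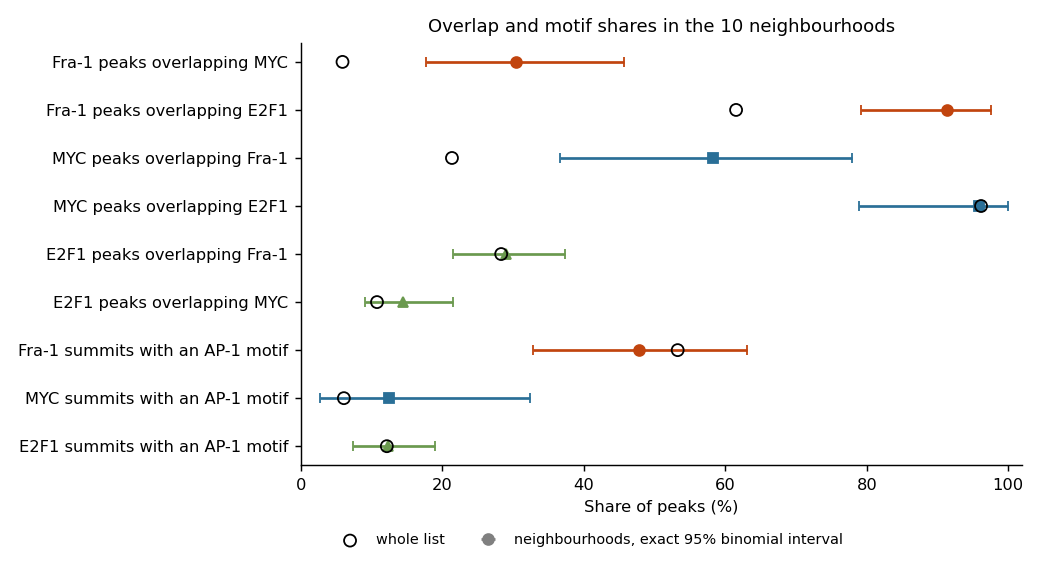
Share of peaks (%) in the 10 neighbourhoods that overlap another TF or have an AP-1 motif within 50 bp of the summit (filled symbols, with exact 95% binomial intervals), beside the share in the whole list (open circles). The open circle lies outside the interval for Fra-1 overlapping MYC, Fra-1 overlapping E2F1 and MYC overlapping Fra-1, and inside it for the other shares.

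The AP-1 motif was found within 50 bp of 22 of the 46 Fra-1 summits (47.8%, exact binomial 95% interval 32.9 to 63.1), close to the 53.3% of the whole list. It was found at 5 of the 9 Fra-1 promoter summits and at 17 of the 37 others. Among the E2F1 summits, 15 of the 40 in peaks that overlapped Fra-1 had the motif, and 2 of the 98 in the remaining peaks (37.5% and 2.04%). The whole E2F1 list divided in much the same way, with 36.1% and 2.70%. A CRE was near 2 of the 46 Fra-1 summits, those of ATF3 and MAFF (4.35%), beside 0.393% of the list. The E2F motif (TTTCCCGC, TTTCGCGC, TTTGCCGC or TTTGGCGC) was near 2 of the 138 E2F1 summits (1.45%), beside 1.68% of the list, and near none of the 40 promoter summits (0%, upper limit 8.81%). The MAF recognition element, which contains the AP-1 motif or the CRE, was near none of the 46 Fra-1 summits of the family. It was near only 4 of the 17311 summits of the list (0.0231%), so its absence here says nothing about these genes. All motifs were searched on both strands.

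In the window from 250 bp upstream to 50 bp downstream of the canonical TSS, the AP-1 motif was found at FOSL1 and FOSL2, beside 3.57% of all such windows. The CRE was found at JUND and MAFF, beside 2.68%, and the E-box at MAFF alone, beside 8.76%. The CArG box and the E2F motif were found at no member in this window, beside 1.21% and 4.38%. These are matches of letters only.

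Of 25 other basic leucine zipper genes related to AP-1, including further ATF, CREB, MAF, NFE2 and BACH genes, 6 had a Fra-1 promoter peak, 6 a MYC promoter peak and 21 an E2F1 promoter peak. MAFG and NFE2L2 had promoter peaks of all 3 TFs. MAFG encodes a small MAF protein like MAFF, and its strongest promoter peaks had folds of 8.18 (Fra-1), 6.99 (MYC) and 19.97 (E2F1). NFE2L2, which encodes the oxidative stress regulator NRF2, had folds of 7.39, 7.29 and 33.3. All of these were below the folds of the strongest promoter peaks of FOSL1 and JUNB for the same TF. For Fra-1 at JUNB, however, that peak had its summit past the end of the gene. The Fra-1 peak at the JUNB TSS had a fold of 5.91, below those of MAFG and NFE2L2. MAFK, a further small MAF gene named here after its values were seen, had its strongest Fra-1 peak in the promoter class at a fold of 27.2, above that of every AP-1 member. No MYC peak was called in its promoter window.

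By the folds of their strongest promoter peaks over the 3 libraries, the genes most like FOSL1 were SF3B3 and ENO1, at Euclidean distances of 0.169 and 0.321 on the log2(1 + fold) scale. The gene most like JUNB was HOOK2, at a distance of 0 because it shares the peaks, followed by SQSTM1 at 0.182.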

How the data were processed

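Reads were trimmed (Trimmomatic), mapped by the authors to masked hg19 sequence (Bowtie, unique alignments only) and cleared of duplicates. Per the file headers, MACS2 version 2.0.10.20120913 called peaks for each library at a q-value cutoff of 0.01, and no samples were pooled. The deposited lists give the summit pileup as a signal, p- and q-values as −log10 values, and fold enrichment as a ratio to the input. From these, peaks were classified by overlap of at least 1 bp with GENCODE 44 on GRCh37. The local background was recovered from pileup and fold and is approximate, because the deposited pileup is a whole number. Overlap between TFs needed 1 bp. Motifs were searched within 50 bp of summits, and sequences were read from GRCh37, which has the hg19 coordinates. Binomial and Poisson intervals were computed with scipy 1.17.1. Classification and motif search were tested on simulated data. All 10 genes are described, with their strongest flank peaks. The members and lists were chosen with earlier results of these data known. Alternatives covered peak thresholds, list length, windows, flanks, overlap rules, motif windows and merging.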

Additional observations from a re-analysis of the deposited data

How the results depend on the processing

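Of 97 recomputed values under 13 alternatives, 85 moved by at most 1.5 times, for a count, or stayed in the interval of the share. With a −log10 q of at least 5, the MYC peaks fell to 14, and 1 member, FOSL1, kept an overlap of all 3 TFs in its promoter window. With lists of equal length (4857 peaks each), 3 members had a Fra-1 promoter peak, the neighbourhoods held 18 Fra-1 and 27 E2F1 peaks, 1 member (FOSL1) had the overlap of all 3 TFs, and the shares of overlap were 38.9% for Fra-1 with E2F1 and 33.3% for MYC with Fra-1. With a reciprocal overlap of 50%, 0 members had the overlap of all 3 TFs and 39.1% of Fra-1 peaks overlapped E2F1. With summits within 200 bp in place of overlap, 1 member, JUNB, remained. Merging E2F1 peaks within 1 kb left 61. These alternatives keep fewer peaks or stricter pairs, so lower counts are built into them. A change relative to the whole list is not built in. With the reciprocal overlap, the 39.1% of Fra-1 peaks stood beside 40.6% of the list, so no higher share was left. The reason for this was not tested. With 1 library per TF, the counting intervals do not cover variation between cultures or immunoprecipitations, and a gene without a called peak may hold signal below the threshold. No paired analysis was possible because each TF has 1 library.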
